A study of Mus musculus with 12 samples.

Results

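Expression of Nfe2l2, the gene of the transcription factor NRF2, and of 9 of its textbook target genes (Nqo1, Hmox1, Gclc, Gclm, Txnrd1, Srxn1, Slc7a11, Osgin1 and Gsr) was examined in mouse cerebellum as a readout of oxidative and chemical stress from a compound. These 10 genes were chosen by name from 55401 gene identifiers in the count tables, and each of the 10 was matched and passed the filter on low counts that left 19378 genes for testing. RNA from the cerebellum of 12 mice, 4 in each of 3 groups, was sequenced after depletion of ribosomal RNA. Heterozygous Atxn1154Q/2Q mice (Het), which model spinocerebellar ataxia type 1 (SCA1) by an expanded CAG tract knocked into 1 copy of the mouse Atxn1 gene itself, received either the compound Hit 2 dissolved in dimethyl sulfoxide (DMSO) or DMSO alone. Wild-type mice (WT), which carry no expanded allele, received DMSO alone. Every mouse in the 3 groups was therefore exposed to DMSO, kept below 4 ml/kg, and no WT mice with Hit 2 are among the groups. Injections into the peritoneum began at 18 weeks of age and were given on 5 days, then after 2 days of rest on 5 more days, with Hit 2 at 25 mg/ml as the labels state it. The cerebellum was removed at 20 weeks, on the last day of injection. Libraries are named below by the animal number in the labels: 413, 425, 426 and 431 for WT DMSO, 409, 411, 420 and 429 for Het DMSO, and 410, 421, 422 and 430 for Het Hit 2.

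NRF2 is held at a low level in unstressed cells by KEAP1, an adaptor that presents it to a CUL3 and RBX1 ubiquitin ligase for degradation. Electrophiles and oxidants modify cysteines of KEAP1, NRF2 then accumulates, pairs with a small MAF protein and binds antioxidant response elements, where the repressor BACH1 can occupy the same DNA. Because much of this control acts on the protein, the level of Nfe2l2 RNA need not follow NRF2 activity, and the RNAs of the targets are the usual transcriptional readout. In brain, the NRF2 pathway is known to be more active in astrocytes than in neurons.

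The promoters of the NRF2 genes were searched for the core of the antioxidant response element, because it is the sequence through which NRF2 and BACH1 act. The letters TGACNNNGC, and the related letters TGAGNNNGC that differ from them at 1 base, were looked for on both strands in windows of 300 bases, from 250 bases before to 50 bases after each start site in RefSeq on GRCm38.p6. The table held 9 start sites for 7 of the 10 genes; Hmox1, Gclc and Gsr had no entry. A match to either motif was found in 6 of the 9 promoters, 1 for each of 6 genes, and the 300-base window of Nqo1 held none. Among all 32851 promoters of the table, 12.4% held TGACNNNGC, 17.6% held TGAGNNNGC and 27.8% held either. The 250 bases before the start of 4 genes are shown, with each match in capitals: Srxn1, which had the highest level per length and the most matches, Osgin1, which had the lowest level, Txnrd1, which had the smallest p between groups, and Nfe2l2 itself.
Srxn1: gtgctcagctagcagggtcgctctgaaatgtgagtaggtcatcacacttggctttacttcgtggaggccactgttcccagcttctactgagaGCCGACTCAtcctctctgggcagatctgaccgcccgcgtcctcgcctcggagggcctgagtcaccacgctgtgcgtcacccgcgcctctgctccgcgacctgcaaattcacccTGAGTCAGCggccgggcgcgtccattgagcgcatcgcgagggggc
Osgin1: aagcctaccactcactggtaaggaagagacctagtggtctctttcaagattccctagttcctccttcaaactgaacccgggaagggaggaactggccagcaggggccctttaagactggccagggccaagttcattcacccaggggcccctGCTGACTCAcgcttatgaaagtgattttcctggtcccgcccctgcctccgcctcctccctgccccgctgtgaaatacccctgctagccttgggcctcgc
Txnrd1: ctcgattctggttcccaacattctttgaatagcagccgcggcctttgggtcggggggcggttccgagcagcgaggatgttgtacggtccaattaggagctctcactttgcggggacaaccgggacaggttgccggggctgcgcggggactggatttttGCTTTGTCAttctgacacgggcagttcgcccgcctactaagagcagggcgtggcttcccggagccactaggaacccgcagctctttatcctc
Nfe2l2: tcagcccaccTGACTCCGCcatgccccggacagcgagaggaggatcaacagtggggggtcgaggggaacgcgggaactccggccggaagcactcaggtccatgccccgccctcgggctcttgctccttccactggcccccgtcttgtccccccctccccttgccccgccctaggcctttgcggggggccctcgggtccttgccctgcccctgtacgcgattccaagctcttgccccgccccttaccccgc
These stretches are chr2:152105274-152105523 on the plus strand for Srxn1, chr8:119436897-119437146 on the plus strand for Osgin1, chr10:82858956-82859205 on the plus strand for the start of Txnrd1 that held a match, and chr2:75704664-75704913 on the minus strand for Nfe2l2. Srxn1 and Osgin1 carried the same 9 bases, TGAGTCAGC, in opposite orientation. In Srxn1 they lay 45 to 37 bases before the start, and in Osgin1 the reverse complement GCTGACTCA lay 99 to 91 bases before it. Srxn1 held a further TGAGNNNGC match 158 to 150 bases before the start and a TGACNNNGC match in the transcribed part of the window, which is not shown. The single matches of Txnrd1 and Nfe2l2 were of the TGACNNNGC form. A match only says that these letters are present, and no binding was measured.

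Reads assigned to genes ranged from 15855751 to 45265719 per library, with a median of 22945780. Atxn1, the gene that the knock-in alters, stood at 137 to 186 CPM (reads scaled to a common library size), and the counts pool both alleles. In the Het DMSO group, libraries 409 and 411 stood apart from the other 10. Library 411 went against its cerebellum label: Gabra6, which marks cerebellar granule cells, stood at 0.606 CPM, against 227 to 388 CPM in the 10 libraries other than 409 and 411, and the Purkinje cell gene Pcp2 at 0.555 CPM against 70.2 to 209 CPM. The summed level of 10 granule cell genes was 302 CPM in library 411 and 4504 to 10120 CPM in the other 11, and that of 10 oligodendrocyte genes was highest in 411, at 6656 CPM. Library 409 had granule and Purkinje markers, but some lay outside the range of those 10 libraries, low or high. The Purkinje cell gene Pcp4 stood at 1.97 CPM against 15.75 to 39.0 CPM, and the granule cell gene Fat2 at 4022 CPM against 1452 to 2559 CPM. Only 0.0796% of the gene reads of 409 came from mitochondrial genes, against 1.85% to 2.81% in the other 11. Fold changes of single genes that use the Het DMSO group are therefore also given without them. Among the other 10 libraries, Het Hit 2 library 410 had the lowest Purkinje and granule cell sums, at 3387 and 4504 CPM. It also had the highest oligodendrocyte and microglial sums, at 5579 and 158 CPM. There 0 of 10 Purkinje and 0 of 10 granule cell genes exceeded their median, against 10 of 10 oligodendrocyte and 10 of 10 microglial genes. Library 410 remains in the fits without 409 and 411. WT libraries 425 and 426 had 1393 and 1437 CPM of Xist and the other 10 at most 0.295 CPM, so females were in the WT group only. In these bulk samples, fewer cells of a type and less RNA per cell cannot be told apart.

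The NRF2 genes spanned a wide range of levels. Per kilobase of exon, Srxn1 (sulfiredoxin, which repairs overoxidised peroxiredoxins) was highest, at 21.3 ± 3.87 CPM per kb (SD, n = 12). Gclc, the catalytic subunit of the enzyme that starts glutathione synthesis, followed at 15.5 ± 1.21, and Gsr, which regenerates reduced glutathione, at 11.9 ± 1.73. Txnrd1, the cytosolic thioredoxin reductase, and Gclm, the modifier subunit that partners Gclc, lay side by side at 9.41 ± 1.73 and 9.32 ± 1.24. Nfe2l2 itself stood at 4.15 ± 0.994, the quinone reductase Nqo1 at 3.30 ± 0.350, and the cystine importer Slc7a11 at 2.27 ± 0.708 CPM per kb. Hmox1, the inducible heme oxygenase, and Osgin1, an oxidative stress-induced growth inhibitor, were lowest, at 1.52 ± 0.471 and 0.224 ± 0.120. Of the 9 steps in this order, only those from Gclm to Nfe2l2 and from Hmox1 to Osgin1 separated genes whose ranges over the 12 libraries did not overlap. Srxn1 exceeded Gclc, and Gclc exceeded Gsr, in 12 of 12 libraries, whereas Txnrd1 exceeded Gclm in 3 of 12.

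In none of the 3 comparisons did any of the 10 genes pass an adjusted p of 0.05 in edgeR's quasi-likelihood test with Benjamini-Hochberg adjustment over all 19378 genes. The background of such calls was 0.00516% of genes in Het DMSO against WT DMSO (the knock-in allele), 0.0% in Het Hit 2 against Het DMSO (the compound) and 0.00516% in Het Hit 2 against WT DMSO, so a count of 0 in 10 was near the background. At an unadjusted p under 0.05, edgeR marked 1 of the 10 under the knock-in allele (background 7.11%), 1 of the 10 under the compound (background 1.55%) and 0 of the 10 between treated Het and WT mice (background 1.71%). Both marks were Txnrd1. DESeq2 and limma with a weight per library also called 0 of the 10 genes in each comparison. Adjacent comparisons share a group of libraries, so their values are not independent.

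**Figure D1:**
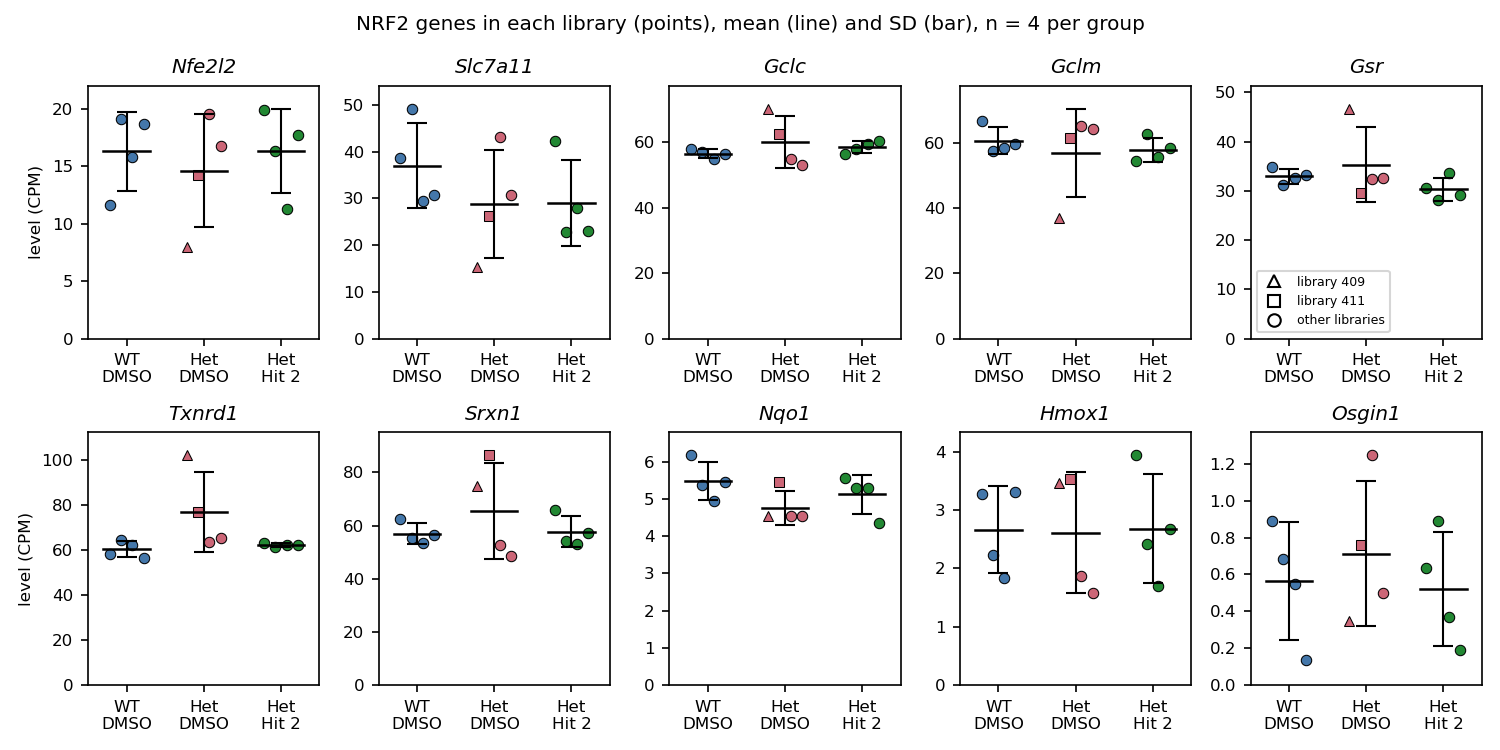
Level of each NRF2 gene in CPM (vertical axis, from 0) in every library of the 3 groups (horizontal axis), with the group mean as a line and the SD as a bar (n = 4). Libraries 409 (triangle) and 411 (square) of the Het DMSO group lie above the range of the other 10 libraries for Gclc, Txnrd1 and Srxn1.

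Nfe2l2 did not differ between groups beyond the spread of its replicates. Its level was 11.6, 19.1, 15.85 and 18.7 CPM in WT libraries 413, 425, 426 and 431. It was 7.98, 14.2, 19.5 and 16.8 CPM in Het DMSO libraries 409, 411, 420 and 429, and 19.9, 16.4, 11.3 and 17.7 CPM in Het Hit 2 libraries 410, 421, 422 and 430. The 3 groups overlapped, with the single lowest value in library 409 and the highest in Het Hit 2 library 410. Het Hit 2 stood 1.12-fold against Het DMSO (95% interval 0.740 to 1.68, edgeR adjusted p 0.903), and without libraries 409 and 411 the ratio was 0.894 (0.620 to 1.29). The log2 difference of Het DMSO from WT was -0.16 (SE 0.27, edgeR adjusted p 0.817), and 0.14 without those libraries.

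The genes whose profile over the 12 libraries was most like that of Nfe2l2 were Skil, a repressor of SMAD signalling, Rel, a subunit of NF-kappa B, Rad50, a DNA repair protein, Tmem123 and Mettl4. Their root mean square differences from Nfe2l2, on centred log2 CPM, were 0.169, 0.171, 0.194, 0.207 and 0.209, over 12 libraries and among 12455 genes with a mean of at least 5 CPM. Among the NRF2 genes, the closest pairs by the same measure were Gclc with Txnrd1 (0.147) and Gclc with Gsr (0.148), while Nfe2l2 was closest to Gclm (0.299).

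Glutathione begins with cystine import, and Slc7a11 had the second largest SD of log2 CPM of the NRF2 genes, 0.470 after Osgin1, although without libraries 409 and 411 Hmox1 (0.440) exceeded it (0.382). Its WT libraries read 38.6, 49.15, 29.5 and 30.7 CPM, its Het DMSO libraries 15.35, 26.15, 43.1 and 30.7 CPM, and its Het Hit 2 libraries 42.3, 22.8, 27.9 and 23.1 CPM, in the order of animal numbers given above. The groups overlapped: library 409 was lowest and WT library 425 highest, a 3.20-fold range. Within Het Hit 2, library 410 read 42.3 CPM and the others 22.8 to 27.9 CPM. The ratio of Het Hit 2 to Het DMSO was 1.01-fold (95% interval 0.640 to 1.59, edgeR adjusted p 0.992), and 0.785-fold (0.512 to 1.20) without libraries 409 and 411. The log2 difference of Het Hit 2 from WT was -0.35 (SE 0.30, edgeR adjusted p 1.000), and -0.37 without those 2 libraries.

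Gclc was the steadiest of the 10 genes. WT libraries lay between 54.7 and 57.8 CPM and Het Hit 2 libraries between 56.3 and 60.4 CPM, while Het DMSO libraries 409, 411, 420 and 429 read 70.2, 62.6, 54.8 and 52.9 CPM. The Het DMSO group spanned both other groups, with 409 and 411 above every other library and 429 below every other. Het Hit 2 stood 0.973-fold against Het DMSO (95% interval 0.831 to 1.14, edgeR adjusted p 0.932). Without libraries 409 and 411 it was 1.09-fold (0.996 to 1.18, edgeR p 0.0589, adjusted p 0.983), so the direction turned with those 2 libraries.

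Gclm, in contrast, was low in library 409. It read 36.9 CPM there and 61.8, 65.3 and 64.4 CPM in the Het DMSO libraries 411, 420 and 429, against 57.8 to 66.8 CPM in WT and 54.6 to 62.9 CPM in Het Hit 2. Apart from library 409 the groups shared 1 narrow range. Under the compound the ratio to Het DMSO was 1.02-fold (95% interval 0.796 to 1.30, edgeR adjusted p 0.975), and 0.893-fold (0.792 to 1.01, edgeR adjusted p 0.983) without libraries 409 and 411. Exons of Gclm overlap those of Gm17494 on the opposite strand, which the strand of the reads separates, and those of the pseudogene Gm6061 on the same strand, which had 226 reads in all libraries together.

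Gsr showed 1 high library, again 409, at 46.6 CPM. The other Het DMSO libraries read 29.6, 32.4 and 32.7 CPM, the WT libraries 31.2 to 34.75 CPM and the Het Hit 2 libraries 28.1 to 33.5 CPM, so the groups overlapped. Gsr under the compound was 0.858-fold of Het DMSO (95% interval 0.693 to 1.06, edgeR adjusted p 0.898) and 0.932-fold (0.822 to 1.06) without libraries 409 and 411. Without library 411 alone, which leaves the high library 409 in place, it was 0.795-fold (0.637 to 0.992, edgeR p 0.0432, adjusted p 0.630).

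Txnrd1, which keeps thioredoxin reduced, gave the smallest p of the 10 genes in the comparison with WT under vehicle and in the comparison of the compound with vehicle. It read 58.55, 64.55, 62.3 and 56.8 CPM in the WT libraries and 102, 77.2, 63.85 and 65.4 CPM in Het DMSO libraries 409, 411, 420 and 429. The Het Hit 2 libraries read 63.2, 61.4, 62.2 and 62.5 CPM. Every Het Hit 2 library lay below every Het DMSO library, the only case among the 10 genes of groups that did not overlap, where 1.03% of all genes had groups apart and 0.392% had them apart in this direction. In Het DMSO against WT and Het Hit 2 against WT, 0 of the 10 genes had groups apart, against backgrounds of 4.39% and 6.32%. The nearest libraries, 410 and 420, differed by less than 1 CPM, and Het Hit 2 lay within the WT range.

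The log2 fold change of Txnrd1 was 0.35 for Het DMSO against WT (SE 0.14), with an edgeR p of 0.0282, an adjusted p of 0.616 and a permutation p of 0.0571 (exact, two-sided). Relative to Het DMSO, Het Hit 2 stood at -0.31 on the log2 scale (SE 0.14, edgeR p 0.0480, adjusted p 0.898), with an exact two-sided permutation p of 0.0286, the smallest that 4 libraries against 4 can give. Groups that do not overlap always give that permutation p, so it adds nothing to their separation. Neither log2 fold change passed the adjustment over all genes. Both fold changes rest on libraries 409 and 411: without those libraries they were 0.08 (edgeR p 0.225) and -0.06 (edgeR p 0.407). The change from WT to Het Hit 2 was 0.04 (SE 0.14, edgeR adjusted p 1.000).

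Srxn1 was high in the same 2 libraries. It read 74.8 and 86.4 CPM in 409 and 411, but 52.8 and 48.4 CPM in Het DMSO libraries 420 and 429, against 53.3 to 62.6 CPM in WT and 53.1 to 65.9 CPM in Het Hit 2. The Het DMSO group thus reached both above and below each of the other groups. Srxn1 under the compound was 0.878-fold of Het DMSO (95% interval 0.677 to 1.14, edgeR adjusted p 0.898), and without libraries 409 and 411 it turned to 1.14-fold (0.977 to 1.32, edgeR p 0.0903, adjusted p 0.983).

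Among the genes most used as reporters of NRF2 activation, Nqo1 read 6.17, 5.37, 4.94 and 5.46 CPM in WT. In Het DMSO it read 4.53, 5.45, 4.54 and 4.55 CPM, and in Het Hit 2 5.56, 5.29, 5.29 and 4.36 CPM. The groups overlapped; library 411 was the one high value of its group and library 430 the lowest of all. Nqo1 under the compound was 1.07-fold of Het DMSO (95% interval 0.842 to 1.37, edgeR adjusted p 0.898) and 1.13-fold (0.892 to 1.42) without libraries 409 and 411. The change from WT to Het DMSO was -0.20 on the log2 scale (SE 0.16, edgeR adjusted p 0.644, permutation p 0.0857, exact and two-sided) and -0.28 without them.

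Hmox1 rested on few reads, 30 to 141 per library. It read 3.28, 2.24, 1.83 and 3.31 CPM in WT, 3.47, 3.53, 1.87 and 1.585 CPM in Het DMSO and 3.94, 2.42, 1.70 and 2.67 CPM in Het Hit 2. The 3 groups overlapped almost entirely, with the highest value in Het Hit 2 library 410. In WT the 2 female libraries, 425 and 426, were the lower pair, and in Het DMSO libraries 420 and 429 were the lower pair. Hmox1 under the compound was 1.02-fold of Het DMSO (95% interval 0.599 to 1.73, edgeR adjusted p 0.986), and without libraries 409 and 411 it was 1.54-fold (0.881 to 2.69, edgeR p 0.116, adjusted p 0.983).

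Osgin1 was near the limit of detection, with 3 to 29 reads per library. It read 0.134 to 0.892 CPM in WT, 0.345 to 1.25 CPM in Het DMSO and 0.188 to 0.890 CPM in Het Hit 2, and the groups overlapped. Its interval for Het Hit 2 against Het DMSO, 0.299 to 1.84 around 0.741-fold, was the widest of the 10, and without libraries 409 and 411 it was 0.202 to 1.77 around 0.598-fold. Osgin1 had the largest SD of log2 CPM over the 12 libraries, 0.793, and the genes most like it were Tek (root mean square difference 0.506), Sncaip (0.514), Adgrv1 (0.529), C130074G19Rik (0.537) and Eng (0.548). Tek and Eng are known endothelial genes, and the summed level of 10 endothelial markers was 212 to 265 CPM in WT, 233 to 334 CPM in Het DMSO and 211 to 328 CPM in Het Hit 2; its part in the Osgin1 values was not tested.

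**Figure D2:**
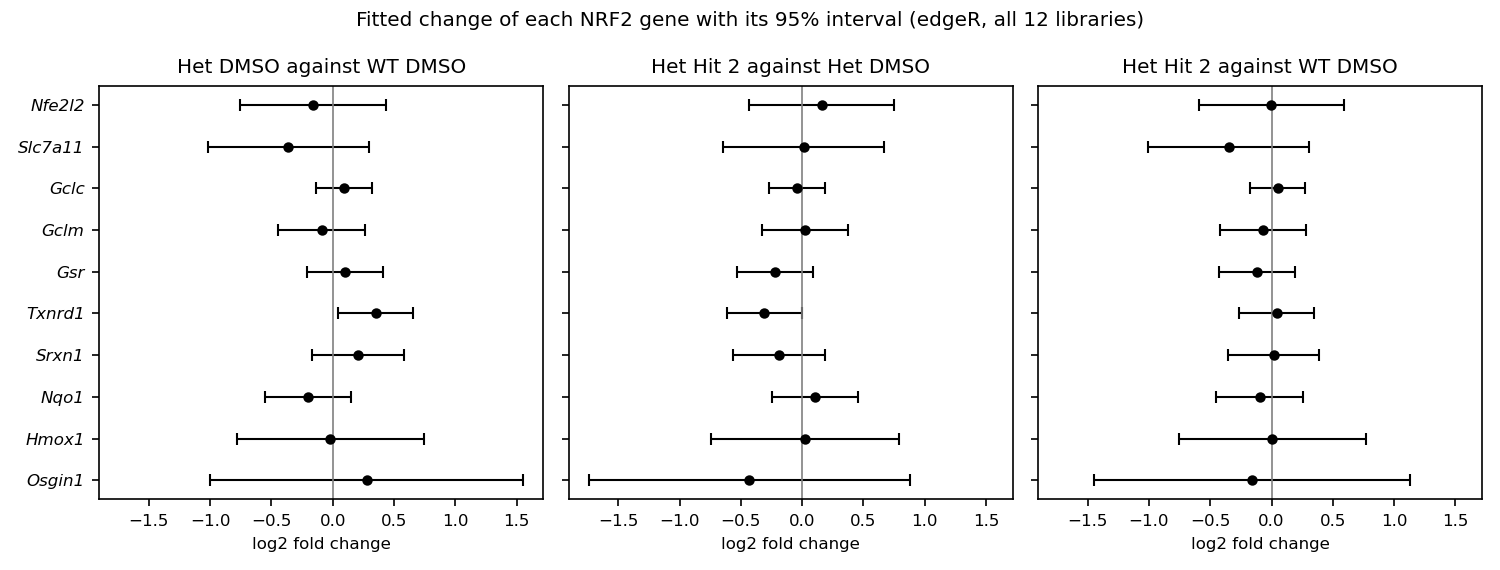
Fitted log2 fold change (horizontal axis) of each NRF2 gene (vertical axis) in the 3 comparisons, with its 95% interval from edgeR over all 12 libraries. Intervals that leave out 0 are those of Txnrd1 in the first 2 panels, at 0.35 and -0.31, and neither passed the adjustment over all genes.

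Read across the 10 genes, the comparison of the compound with vehicle had no common direction: 5 fold changes lay above 0 and 5 below relative to Het DMSO, with a median log2 fold change of -0.01, where 44.3% of all genes lay above 0 and their median was -0.04. In Het DMSO against WT the split was also 5 and 5, with a median of 0.04, where 55.8% of all genes lay above 0 and their median was 0.05. In Het Hit 2 against WT, 4 lay above 0 and 6 below, with a median of -0.04, where 55.7% of all genes lay above 0 and their median was 0.02. Without libraries 409 and 411 the compound comparison split 4 above and 6 below (median -0.079), where 52.3% of all genes lay above 0 (median 0.0094). Without library 409 alone it split 3 and 7 (median -0.087), where 48.5% of all genes lay above 0 (median -0.0081). The comparison of Het DMSO with WT split 4 and 6 without both libraries, where 48.6% of all genes lay above 0, and that of Het Hit 2 with WT split 3 and 7, where 52.5% did. The upper 95% bounds of the Hit 2 effect against Het DMSO were 1.14-fold for Gclc and Srxn1, 1.30-fold for Gclm, 1.37-fold for Nqo1, 1.59-fold for Slc7a11, 1.68-fold for Nfe2l2, 1.73-fold for Hmox1 and 1.84-fold for Osgin1. Those for Gsr and Txnrd1 were 1.06-fold and 0.998-fold. Leaving out libraries 409 and 411 raised the bound of Hmox1 to 2.69-fold, Nqo1 to 1.42-fold, Srxn1 to 1.32-fold, Gclc to 1.18-fold and Txnrd1 to 1.06-fold, so that no bound stayed below 1, and lowered the other 5. Beside these values, the summed level of 10 astroglial markers was 2522 to 2741 CPM in WT, 1967 to 2492 CPM in Het DMSO and 2195 to 2340 CPM in Het Hit 2. None of the 10 was at 0 in any library. The 2492 CPM was library 411, where Slc1a2 alone gave 1835 CPM. Gdf10, in contrast, stood there at 1.6 CPM, against 41.6 to 176 CPM in the 10 libraries other than 409 and 411. The mean centred log2 CPM of this list was lowest in library 411, at -0.945, with 5 of 10 genes above their median. The part of astroglia in the values of the NRF2 genes was not tested.

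**Figure D3:**
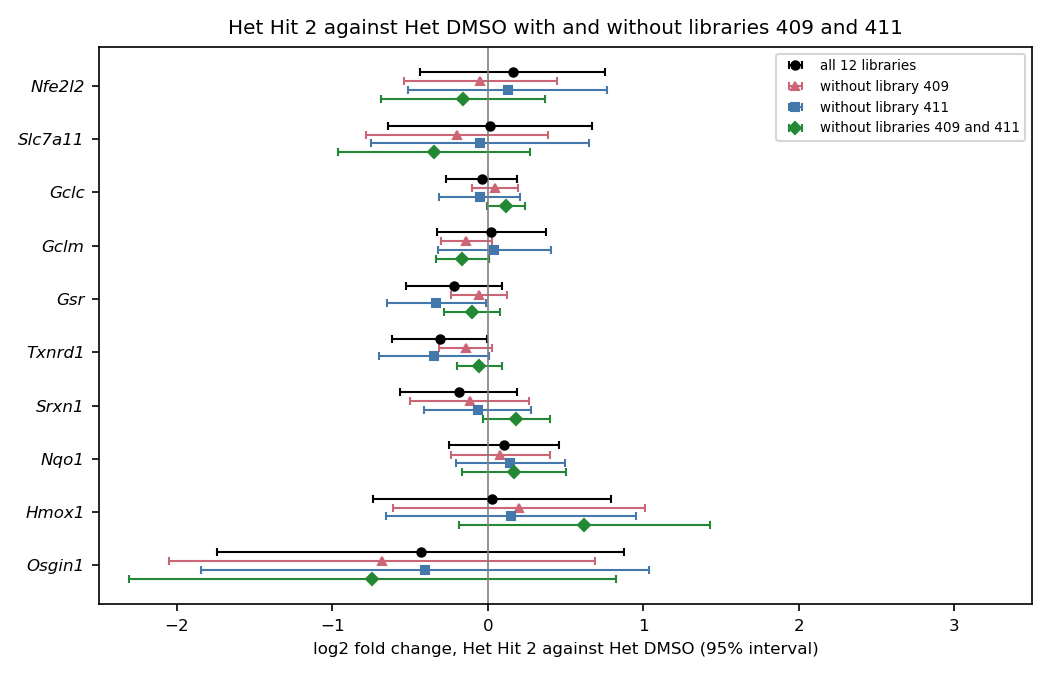
Log2 fold change of each NRF2 gene for Het Hit 2 against Het DMSO (horizontal axis, with 95% intervals) with all 12 libraries, without library 409, without library 411 and without both. Gclc, Srxn1, Gclm, Slc7a11 and Nfe2l2 change sign between the fit with all libraries and the fit without both.

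The upstream regulators were examined in a list of 14 genes. In edgeR 0 of the 14 passed the adjusted threshold in any comparison, but for Het DMSO against WT 13 lay above 0 and 1 below (median 0.30), where 55.8% of all genes lay above 0 (median 0.05), and 3 had an edgeR unadjusted p under 0.05, as did 7.11% of all genes. Without libraries 409 and 411 the regulators split 10 above and 4 below (median 0.023), where 48.6% of all genes lay above 0. Of the 14, 1 had an edgeR unadjusted p under 0.05 in that fit, as did 5.83% of all genes. Under the compound they split 2 above and 12 below (median -0.17, background 44.3% above 0), and 6 and 8 without those libraries (median -0.010, background 52.3%). Between Het Hit 2 and WT the split was 11 and 3 (median 0.06, background 55.7%), and 9 and 5 without them (background 52.5%). Bach1, the repressor that competes with NRF2, read 28.1, 28.7, 30.05 and 30.35 CPM in WT, 47.5, 39.4, 34.7 and 35.9 CPM in Het DMSO and 35.8, 35.3, 34.7 and 33.5 CPM in Het Hit 2. Every library of both Het groups lay above every WT library, where 1.94% of all genes were separate in that direction for Het DMSO and 2.9% for Het Hit 2. The Het DMSO libraries exceeded WT by 0.43 on the log2 scale (edgeR p 0.00257, adjusted p 0.616) and the Het Hit 2 libraries by 0.25 (edgeR p 0.0459, adjusted p 1.000), both short of the threshold. Without libraries 409 and 411 they were 0.26 (edgeR p 0.00272, adjusted p 0.332) and 0.24 (edgeR p 0.00127, adjusted p 0.114). In limma with a weight per library the second passed, with an adjusted p of 0.0312, and the first gave 0.0627. The Het Hit 2 and Het DMSO groups overlapped for Bach1.

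Beside Bach1, 10 of 10 microglial markers lay above 0 for Het DMSO against WT (median 0.56). Their summed level was 80.0 to 114 CPM in WT, 91.2 to 218 CPM in Het DMSO and 81.4 to 158 CPM in Het Hit 2, with library 411 highest; none of the 10 was at 0 in any library. Without libraries 409 and 411 the median was 0.12, with 9 of 10 above 0. Oligodendrocyte markers also lay above 0 in 10 of 10 cases (median 0.57), and without the 2 libraries in 4 of 10 (median -0.011), with sums of 1804 to 3435 CPM in WT, 1301 to 6656 CPM in Het DMSO and 1319 to 5579 CPM in Het Hit 2. In Het Hit 2 against WT, 9 of 10 microglial (median 0.17) and 10 of 10 oligodendrocyte markers (median 0.19) lay above 0. Purkinje cell markers lay below 0 in 10 of 10 cases for Het DMSO against WT, with a median of -0.92, and -0.54 without the 2 libraries. They also did so in 10 of 10 cases for Het Hit 2 against WT (median -0.56), and 9 of the 10 had groups apart, where 3.42% of all genes were separate in that direction. In the fit without libraries 409 and 411 the latter median was -0.57, and 10 of 10 had an edgeR p under 0.05 (background 9.5%). Of these, 1 passed the adjusted threshold there, as did 90 of all 20105 genes. It was Pcp4, a calmodulin regulator named after its value was seen, at -0.83 (edgeR adjusted p 0.0264). The part of these 3 cell types in the Bach1 values was not tested.

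Keap1, the NRF2 anchor, read 46.8 to 50.8 CPM in WT and 87.9, 60.7, 51.0 and 53.1 CPM in Het DMSO libraries 409, 411, 420 and 429. The groups did not overlap, as for 3 of the 14 regulators and 1.94% of all genes in that direction, by a margin of less than 1 CPM between libraries 426 and 420, and the log2 fold change was 0.36 (edgeR p 0.0379, adjusted p 0.616), or 0.07 without 409 and 411. Its Het Hit 2 libraries, at 52.4 to 53.9 CPM, also lay above every WT library (background 2.9%), with a log2 fold change of 0.10 (edgeR p 0.509, adjusted p 1.000). The exact two-sided permutation p of 0.0286 follows from the groups lying apart and adds nothing to it. Mafg, a small MAF partner, read 80.8 to 110 CPM in WT, 107 to 192 CPM in Het DMSO and 83.7 to 109 CPM in Het Hit 2, with the top value in library 409. Its log2 fold change was 0.51 for Het DMSO against WT (edgeR p 0.0202, adjusted p 0.616) and -0.47 for Het Hit 2 against Het DMSO (edgeR p 0.0303, adjusted p 0.898), and without libraries 409 and 411 these were 0.23 and -0.20. Rbx1, of the ligase that KEAP1 recruits, was the third regulator with Het DMSO above WT in every library, with a log2 fold change of 0.14 (edgeR p 0.111), or 0.12 without the 2 libraries. Dpp3, a protease that binds KEAP1, stood at -0.27 for Het Hit 2 against Het DMSO (edgeR p 0.127) and at -0.021 without them, and Mafk at 0.55 for Het Hit 2 against WT (edgeR p 0.139).

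**Figure D4:**
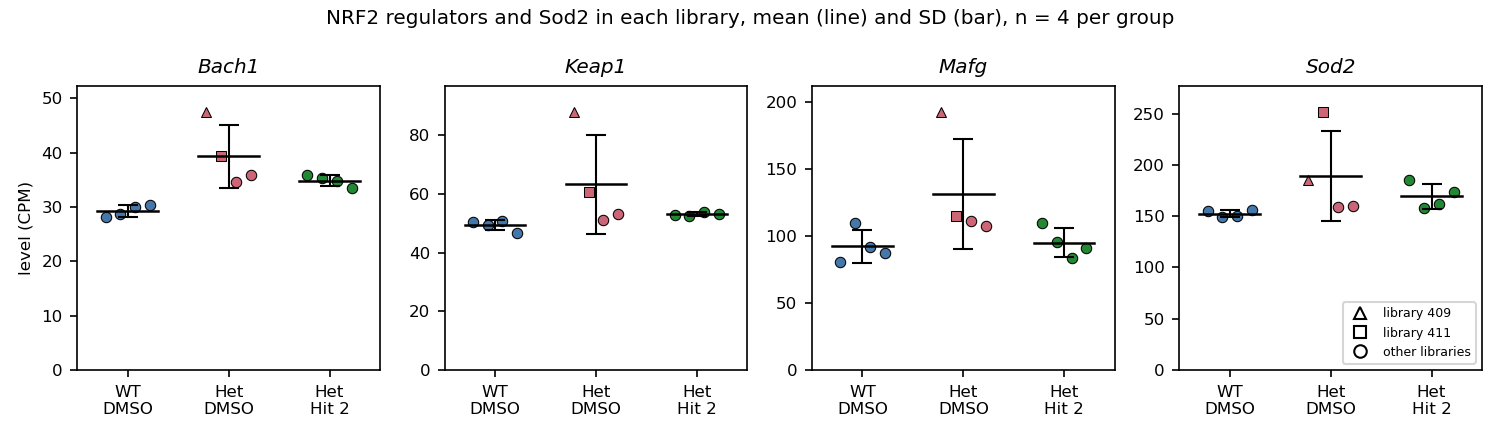
Level in CPM (vertical axis, from 0) of the NRF2 regulators Bach1, Keap1 and Mafg and of the mitochondrial superoxide dismutase Sod2 in every library of the 3 groups, with the group mean as a line and the SD as a bar (n = 4). For Bach1 each library of the Het groups lies above the WT libraries; for Keap1 and Mafg the top value is library 409, and for Sod2 it is library 411.

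The other 41 pathway genes belong to 5 lists. Over all 55 pathway genes, 43 lay above 0 and 12 below for Het DMSO against WT (median 0.18, background 55.8% above 0), and 30 and 25 without the 2 libraries (median 0.00, background 48.6%). Under the compound 11 lay above 0 and 44 below (median -0.16, background 44.3%), and 34 and 21 without them (median 0.05, background 52.3%). In the same comparison 0 of 10 microglial (median -0.36) and 0 of 10 oligodendrocyte markers (median -0.42) lay above 0, and 8 (median 0.088) and 10 (median 0.12) without the 2 libraries. Choroid plexus markers lay above 0 in 0 of 10 cases with all libraries (median -0.92) and in 0 of 10 without the 2 (median -1.75). Their sum ran from 72.9 CPM in library 422 to 2964 CPM in library 429. Of 5 blood markers, 5 lay above 0 (median 0.89), and 3 without the 2 libraries (median 0.025). The part of these cell types in the pathway values was not tested. In the contrast of Het Hit 2 with WT, 38 lay above 0 and 17 below (median 0.04, background 55.7% above 0), and 34 and 21 in the fit without them (median 0.027, background 52.5%). None of the 55 passed the adjusted threshold in edgeR; at an unadjusted p under 0.05 there were 6, 1 and 1 in the 3 comparisons, against backgrounds of 7.11%, 1.55% and 1.71%. In the fit without the 2 libraries there were 1, 1 and 4, against 5.83%, 3.72% and 9.5%.

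Among 12 other glutathione genes, 9 lay above 0 and 3 below for Het DMSO against WT (median 0.20, background 55.8% above 0), and 6 and 6 without libraries 409 and 411 (median -0.035, background 48.6%). Under the compound 3 lay above 0 (background 44.3%), and 8 without them (background 52.3%). Gstp1, a glutathione transferase, read 24.5 to 35.0 CPM in WT and 44.8, 58.75, 31.0 and 33.4 CPM in Het DMSO, a log2 fold change of 0.50 (edgeR p 0.0233, adjusted p 0.616), or 0.11 without libraries 409 and 411. Gstm1, another transferase, went the other way, at -0.35 (edgeR p 0.0492, adjusted p 0.616), and kept that sign, at -0.27, without them. Gsta4 stood at 0.52 (edgeR p 0.0970), and at 0.17 without them. Under the compound the smallest p of this list belonged to the efflux pump Abcc4, at -0.21 (edgeR p 0.0914) and -0.11 without them, and for Het Hit 2 against WT that of Gstm1, at -0.19 (edgeR p 0.244).

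Among 8 thioredoxin and peroxiredoxin genes, 6 lay above 0 and 2 below for Het DMSO against WT (median 0.13, background 55.8% above 0), and 3 and 5 without libraries 409 and 411 (median -0.042, background 48.6%). Relative to Het DMSO, 2 lay above 0 in Het Hit 2 (background 44.3%), and 5 without them (background 52.3%). Prdx5, a peroxiredoxin, read 70.1 to 78.5 CPM in WT and 130, 124, 76.4 and 81.6 CPM in Het DMSO, with 409 and 411 the high pair. Its log2 fold change was 0.45 (edgeR p 0.0173, adjusted p 0.616) and 0.06 without that pair, and under the compound these were -0.35 (edgeR p 0.0528) and 0.03. Txn1, thioredoxin itself, stood at 0.36 (edgeR p 0.0755) and -0.24 (edgeR p 0.210) in these comparisons, and at 0.20 and -0.097 without the pair. Between Het Hit 2 and WT the smallest p was that of Txnip, the thioredoxin inhibitor, at -0.31 (edgeR p 0.488).

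The 6 NADPH genes, which supply the reducing power that Gsr, Txnrd1 and Nqo1 consume, split 5 above and 1 below for Het DMSO against WT (background 55.8% above 0) and 1 above and 5 below for Het Hit 2 against Het DMSO (background 44.3%). Leaving out 409 and 411, they split 3 and 3 (background 48.6%), and 4 above and 2 below with a median of 0.089 (background 52.3%). Pgd had the smallest p in the former, at 0.31 (edgeR p 0.0879), and Taldo1 in the latter, at -0.20 (edgeR p 0.0654). In the fit without the 2 libraries, Pgd turned to -0.063 and Taldo1 stood at -0.11. Taldo1 was lower in every Het Hit 2 library, at 34.8 to 37.1 CPM, than in every WT library, at 37.3 to 39.6 CPM, with a log2 fold change of only -0.10 (edgeR p 0.337) and a background of 3.42% of genes separate in that direction.

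Of 7 iron and heme genes, 5 lay above 0 for Het DMSO against WT (median 0.21, background 55.8%) and 2 for Het Hit 2 against Het DMSO (median -0.095, background 44.3%). Leaving out libraries 409 and 411 gave 4 (median 0.033, background 48.6%) and 5 (median 0.028, background 52.3%). Blvra, the biliverdin reductase that acts after heme oxygenase, had the smallest p in both, at 0.27 (edgeR p 0.0707) and -0.20 (edgeR p 0.162), and stood at 0.12 and -0.063 without the 2 libraries. Hmox2, the constitutive heme oxygenase, stood at 0.21 (edgeR p 0.0992) and -0.17 (edgeR p 0.186), and at 0.033 and about 0 without them. The iron exporter Slc40a1 led the list for Het Hit 2 against WT, at 0.23 (edgeR p 0.429). The summed level of this list ranged from 445 to 1126 CPM, highest in libraries 411 and 410, which also had the highest oligodendrocyte sums, at 6656 and 5579 CPM. Most of these 2 list sums was Fth1, whose highest values were 911 CPM in Het DMSO and 828 CPM in Het Hit 2. In each of these 2 libraries 5 of the 7 genes lay above their median. The part of oligodendrocytes was not tested.

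Of 8 detoxification genes, 5 lay above 0 for Het DMSO against WT (background 55.8%) and 1 for Het Hit 2 against Het DMSO (median -0.14, background 44.3%). These became 4 (background 48.6%) and 6 (median 0.090, background 52.3%) without libraries 409 and 411. Sod2 read 149 to 156 CPM in WT, 185, 252, 159 and 160 CPM in Het DMSO libraries 409, 411, 420 and 429 and 158 to 185 CPM in Het Hit 2. Both Het groups lay above the WT libraries, where 1.94% and 2.9% of all genes did so, but the log2 fold changes were 0.31 (edgeR p 0.0550, adjusted p 0.616) and 0.15 (edgeR p 0.319, adjusted p 1.000). Without libraries 409 and 411 they were 0.05 and 0.14. Cbr1, a carbonyl reductase, stood at 0.32 (edgeR p 0.0546) for Het DMSO against WT and -0.17 (edgeR p 0.291) for Het Hit 2 against Het DMSO, and without the 2 libraries at 0.0080 and 0.13, the latter with its sign turned. Ephx1, the microsomal epoxide hydrolase, was lower in every Het Hit 2 library, at 20.6 to 27.3 CPM, than in every WT library, at 27.7 to 30.5 CPM (background 3.42%), with a log2 fold change of -0.28 (edgeR p 0.206, adjusted p 1.000). Aox1, an aldehyde oxidase, had the smallest p of this list for Het Hit 2 against WT, at -0.41 (edgeR p 0.118).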

How the data were processed

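The deposited values are raw read counts per gene, with a table for each library as the aligner STAR writes it. STAR 2.7.10a and FastQC 0.11.9 are named in the submitters' processing notes, which also list a mouse genome build later than GRCm38; the annotation release is not given in the sources used here. The labels' protocols describe strand-specific libraries (500 ng of input RNA, 13 amplification cycles) and paired reads of 100 bases. The opposite-strand counts were used, because 5.21% to 6.47% of gene reads lay on the other strand. Reads that the authors' tables leave unassigned to a gene (44.7% to 54.6% of all reads), multimapping, unmapped and ambiguous reads stayed out of library sizes and tests.

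Of 55401 identifiers, 55141 matched the GENCODE annotation on GRCm38, used for symbols and exon lengths, and 260 did not. Because that build differs from the files', no gene coordinates are given; promoters are RefSeq's, on GRCm38.p6. Groups came from the labels. Genes were kept by filterByExpr (19378), scaled with TMM factors and fitted in 1 quasi-likelihood model of all 12 libraries in edgeR 4.0.16 (R 4.3.3), two-sided, with Benjamini-Hochberg adjustment over all genes and a threshold of 0.05. Levels are CPM on TMM-scaled library sizes, with a prior count of 2 for log2 CPM. An exact two-sided permutation test over 70 assignments was run for each of the 10 genes and of the pathway genes. The fit was also run on simulated counts with known changes. Its rule for recovery was applied at a spread below that of these data, and was loosened for genes of low level after a first rule was missed. It therefore does not show which changes the fit can find here.

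The 10 genes and all lists were chosen with earlier results of these data known. From each of 6 pathway lists, genes with the smallest p per comparison were named (up to 3), beside genes whose groups did not overlap, which were chosen after their values were seen. Alternatives were DESeq2 1.42.0, RLE factors, no filter, unstranded counts, only the groups compared, a sex covariate, limma 3.58.1 with library weights, leaving out libraries 409 and 411, leaving out each library and, chosen after seeing the data, leaving out 425 and 426.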

Additional observations from a re-analysis of the deposited data

Results flagged for a closer look

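Of 30 checks, each of 1 gene in 1 group of 4 libraries, 2 found a library far from the other 3 of its group, and chance gives about 1 in 20. Nqo1 stood at 5.451 CPM in Het DMSO library 411, where the nearest library had 4.547 CPM. Gclm stood at 36.93 CPM in Het DMSO library 409, where the nearest library had 61.78 CPM.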

How the results depend on the processing

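None of the 10 NRF2 genes passed the threshold in any of the 3 comparisons under the 9 alternatives or the 12 fits that left out 1 library. The number of genes called among all genes tested, 1 for Het DMSO against WT, was 43 with DESeq2, 98 with limma and library weights, 18 without libraries 409 and 411, and 0 with only the groups compared or without 425 and 426; leaving out 1 library gave 0 to 9. For Het Hit 2 against WT it was 1, and 24 with DESeq2, 221 with limma and library weights, 90 without 409 and 411, 54 with only the groups compared, 4 with no filter, 2 with unstranded counts, and 0 with a sex covariate or without 425 and 426; leaving out 1 library gave 0 to 14. Under the compound against Het DMSO the count was 0 throughout, with 301 genes at an unadjusted edgeR p under 0.05. No paired analysis was possible because animal numbers do not recur between groups.

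Signs of uncalled log2 fold changes turned in 69 of 630 cases. For Het DMSO against WT, without libraries 409 and 411 and with limma weights respectively, Nfe2l2 became 0.14 and 0.10, Gclc -0.080 and -0.057, Gclm 0.083 and 0.10, and Srxn1 -0.18 and -0.13; Gsr became -0.028 in the first. For Het Hit 2 against Het DMSO in the same pair of fits, Nfe2l2 became -0.16 and -0.22, Gclc 0.12 and 0.11, Gclm -0.16 and -0.11, Srxn1 0.18 and 0.11, and Slc7a11 -0.35 and -0.47. Slc7a11 was -0.0034 with DESeq2 and -0.0029 with RLE factors, and Hmox1 -0.0065 with DESeq2. For Het Hit 2 against WT, Nfe2l2 became 0.043 with unstranded counts, 0.10 with a sex covariate and 0.10 without 425 and 426. Hmox1 became -0.0071 with DESeq2, -0.0040 with RLE factors, -0.016 with no filter, -0.30 with a sex covariate, -0.0094 without 409 and 411, -0.020 with limma weights and -0.31 without 425 and 426. Srxn1 became -0.0031 with no filter, -0.050 with a sex covariate, -0.020 with limma weights and -0.052 without 425 and 426, and Osgin1 0.0021 with unstranded counts.

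Leaving out 1 library gave, for Het DMSO against WT, Nfe2l2 -0.33 to 0.040, Gclc -4.9e-05 to 0.14, Gclm -0.16 to 0.065, Gsr -0.068 to 0.20, Hmox1 -0.20 to 0.16 and Osgin1 -0.12 to 0.57. For Het Hit 2 against Het DMSO it gave Nfe2l2 -0.049 to 0.33, Gclc -0.096 to 0.045, Gclm -0.14 to 0.095, Hmox1 -0.23 to 0.20 and Slc7a11 -0.23 to 0.27. For Het Hit 2 against WT it gave Nfe2l2 -0.14 to 0.14, Hmox1 -0.24 to 0.18, Osgin1 -0.54 to 0.13 and Srxn1 -0.063 to 0.063. The cause of these turns was not tested. Depth limits Osgin1 (3 to 29 reads per library) and Hmox1 (30 to 141).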
